A study of Mus musculus with 12 samples.

Results

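Collagens, the main structural proteins of the extracellular matrix, were measured in whole ovaries of lethal yellow (LY) mice, which become obese as adults, and their lean black littermates. The chains were taken by gene symbol alone, as every array probe with exactly 1 gene name of the form Col, number, a, number, and each gene was represented by its probe with the highest mean log2 value. This gave 41 collagen chain genes, from 53 of the 21615 probes with 1 gene name and among 18069 genes so named. All 41 passed the filter on dim probes described below. Of the 44 mouse genes of this pattern in RefSeq, Col12a1 and Col28a1 were not analysed here, and Col9a2 was left out because its probe also carries the name of another gene.

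Collagen chains assemble as triple helices, either of a single kind of chain or of several. Fibrillar collagens (types I, II, III, V, XI, XXIV and XXVII) form the fibrils of the ovarian stroma and theca, type IV collagen is the network of basement membranes such as the one around each follicle, and type VI forms beaded filaments between both. Fibril-associated collagens (FACITs) sit on the surface of fibrils, network-forming collagens build sheets, transmembrane collagens span the cell membrane, and multiplexins lie at the border of basement membranes. Follicles remodel this matrix as they grow and when they ovulate.

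There were 4 groups of 3 mice with an array for each mouse: LY mice (C57BL/6J Ay/a) of 180 days, black mice (C57BL/6J a/a) of 180 days, LY mice of 90 days and black mice of 90 days. The Ay allele is a deletion that places agouti under the promoter of its neighbour Raly, so that agouti is made in all tissues, and LY mice carry this change together with the weight they gain in adult life. All mice, black controls included, received the GnRH antagonist Antide (10 µg per g body weight on days 1 and 4) and then equine chorionic gonadotropin (eCG, 1 IU per 5 g body weight), and the ovaries were taken on day 7. The study asked whether ovarian gene expression differs between obese and lean mice, and the 90-day mice, of like body weight in both genotypes, gave the same contrast before obesity.

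Levels are relative intensities, in units in which the median probe of an array is 1, and 0.2 units is the limit of sensitivity that the study states. A probe was tested if its mean reached 0.2 units in at least 1 of the 4 groups, which held for 31359 of 36227 probes. Differences are on the log2 scale, LY minus black or 180 minus 90 days, from a single limma fit over all 12 arrays, and adjusted p-values are Benjamini-Hochberg values over all 31359 probes. Intensities of different probes cannot be set against each other, so each chain was compared only with itself. In whole ovaries, fewer cells of a type and less RNA per cell cannot be told apart.

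Agouti measured 95.7 to 111 units on LY arrays and 0.169 to 0.368 units on black arrays, so the labels of genotype held for all 12 arrays. Arrays of the same group correlated at r = 0.970 to 0.987 over all probes, arrays of different genotype but the same age at 0.962 to 0.984, and arrays of different age at 0.918 to 0.938. The study describes the 180-day arrays as the initial experiment and the 90-day arrays as a later one. The deposited medians were 1.00 on every 180-day array and 1.04 on every 90-day array. Age and array set therefore cannot be told apart, and each difference by age below is a difference between both. All 6 fibroblast and stroma markers were measured, with summed levels of 175 to 185 units in 180-day LY ovaries, 176 to 199 units in 180-day black ovaries, 174 to 183 units in 90-day LY ovaries and 164 to 196 units in 90-day black ovaries. Such sums add probes of different brightness, so the brightest markers weigh most and single markers can differ in direction. By age, 2 of the 6 fibroblast and stroma markers were called higher and 3 lower (background 33.8% and 25.4% of probes). No marker of any list was under 0.2 units on every array.

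The chains reached very different intensities, and the plot of levels on each array gives all 41. Only Col8a1 was under 0.2 units on as many as 6 arrays, and Col11a2 (3 arrays), Col10a1 (2 arrays) and Col7a1 (1 array) were the other chains with a value under that limit. Within groups, the log2 SD of a chain had a median of 0.166, against 0.169 over all probes tested, and the chains with the widest spread were Col8a1 (0.78), Col6a5 (0.41) and Col1a1 (0.39).

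**Figure D1:**
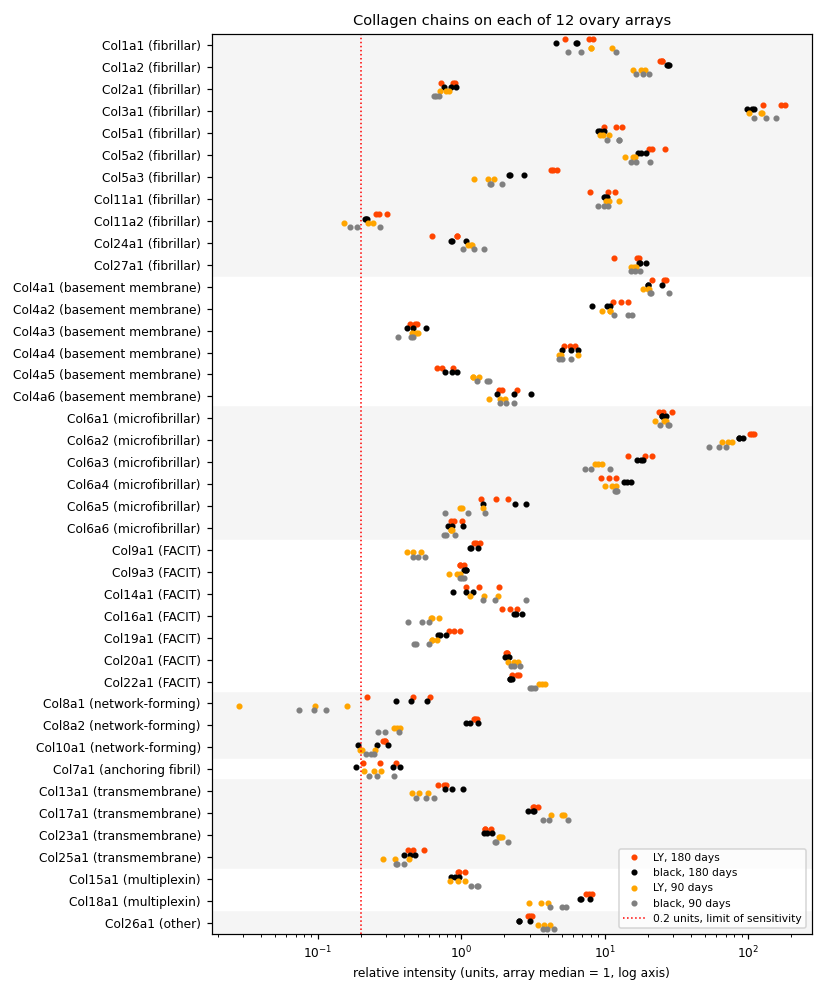
Relative intensity (log axis, array median = 1) of each of the 41 collagen chains on all 12 arrays, with the 3 arrays of a group in the same colour and shaded bands for structural classes. Most chains span less than 2-fold over all arrays, while Col8a1, Col16a1, Col8a2 and Col9a1 separate 180-day from 90-day arrays.

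No collagen chain passed an adjusted p of 0.05 between LY and black ovaries at either age, in the genotype-by-age interaction or over both ages. Over all probes, 14 passed at 180 days (0.0446% of those tested), 14 at 90 days (0.0446%), 0 in the interaction (0%) and 2 over both ages (0.00638%). At an unadjusted p of 0.05, 8 of the 41 chains passed at 180 days (7 with higher and 1 with lower values in LY ovaries, background 12% of probes) and 6 at 90 days (3 with higher and 3 with lower values, background 13.3%). In the interaction 8 passed unadjusted (7 positive and 1 negative, background 12.1%), and over both ages 6 passed (4 with higher and 2 with lower values, background 13.0%). The same lean in direction was present over all 16323 genes tested with 1 probe each. Of these, 1349 passed unadjusted with higher and 659 with lower values at 180 days, and 1815 were positive and 537 negative in the interaction. The shares of chains were above the all-probe backgrounds at 180 days and in the interaction and near them in the other comparisons, and the excess was not tested. The chain with the smallest p in both of those comparisons was Col5a3, whose values are given first.

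Col5a3 encodes the alpha 3 chain of type V collagen, a minor fibrillar collagen that joins type I collagen in mixed fibrils and helps to set their width. Its relative intensity was 4.37, 4.67 and 4.26 units in 180-day LY ovaries, against 2.17, 2.17 and 2.75 units in 180-day black ovaries. All 3 LY arrays lay above all 3 black arrays, with means of 4.43 ± 0.214 units in LY ovaries and 2.36 ± 0.336 units in black ovaries (SD, n = 3 each). At 90 days it was 1.70, 1.23 and 1.55 units in 90-day LY ovaries, against 1.60, 1.93 and 1.61 units in 90-day black ovaries, and the genotypes overlapped. The log2 difference at 180 days was 0.92 (SE 0.14, unadjusted p = 5.92e-05, adjusted p = 0.0610), or 1.89-fold with a 95% interval of 1.52 to 2.35. At 90 days the difference was -0.20 (SE 0.14, adjusted p = 0.579), and the interaction, LY minus black at 180 days less that at 90 days, was 1.12 (SE 0.20, unadjusted p = 0.000200, adjusted p = 0.0889). Col5a3 thus missed the threshold in both, and under 5 other settings of the 180-day test and 2 of the interaction it passed, as described in the closing section.

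Beside this difference, the summed levels of some cell type markers also separated the 180-day genotypes. The 7 granulosa markers measured of 8 summed to 164 to 219 units in LY ovaries and 227 to 302 units in black ovaries, and the 8 oocyte markers to 37.2 to 53.3 units in LY ovaries and 55.7 to 73.4 units in black ovaries. Taken singly, 6 granulosa markers had lower and 1 a higher estimate in LY ovaries, and 7 oocyte markers lower and 1 higher. The fibroblast lists overlapped, as given above. So did the 4 adipocyte markers measured of 6 (24.9 to 26.8 units in LY and 19.6 to 44.1 units in black ovaries) and the 4 macrophage markers measured of 6 (34.4 to 60.5 units in LY and 39.0 to 59.9 units in black ovaries). Their part in the collagen differences was not tested.

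The stretch of sequence at the start of Col5a3 is shown because this chain had the smallest p at 180 days and in the interaction. It holds 250 bases before and 50 after the RefSeq start, on the reverse strand of GRCm38.p6 at chr9:20815018-20815317, with the 4 matches to the motifs searched in capitals, 5′ to 3′.
Col5a3: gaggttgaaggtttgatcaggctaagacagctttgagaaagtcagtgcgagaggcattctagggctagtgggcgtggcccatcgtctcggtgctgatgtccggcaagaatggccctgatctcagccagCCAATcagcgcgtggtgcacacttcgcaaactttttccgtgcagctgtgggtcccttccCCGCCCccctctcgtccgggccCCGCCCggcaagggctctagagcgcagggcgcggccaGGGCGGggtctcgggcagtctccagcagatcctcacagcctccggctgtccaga
The motifs searched, on both strands, were the CCAAT box, the GC box (spelled GGGCGG) and the TATA box (spelled TATAAA), and their matches share no bases in this window. Of the 33 collagen genes with a window in RefSeq, 13 held the CCAAT box, against 37.4% of all 32851 windows. The GC box was in the windows of 21 collagen genes (35.7% of all windows) and the TATA box in those of 5 (13.6% of all windows). In Col5a3 the CCAAT box begins at -122 from the start, and GC boxes of either strand at -63, -41 and -4.

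The other type V chains and type III collagen gave differences of the same sign pattern with smaller sizes. Col3a1, the sole chain of type III collagen, a fibril of pliable tissues, measured 127, 179.5 and 169 units in 180-day LY ovaries, against 107, 109 and 98.5 units in 180-day black ovaries. The LY arrays were all above the black arrays, and the log2 difference was 0.58 (SE 0.16, unadjusted p = 0.00425, adjusted p = 0.217). At 90 days Col3a1 was 123, 101 and 124 units in 90-day LY ovaries, against 132, 157 and 110.1 units in 90-day black ovaries, with a difference of -0.19 (SE 0.16, adjusted p = 0.661) and an interaction of 0.77 (SE 0.23, adjusted p = 0.208). Col5a1, which with Col5a2 makes the common form of type V collagen, was 9.94, 13.2 and 12.1 units in 180-day LY ovaries, against 9.04, 9.27 and 9.83 units in 180-day black ovaries. At 90 days its values were 9.21, 9.70 and 10.7 units in 90-day LY ovaries, against 10.4, 12.6 and 12.6 units in 90-day black ovaries. The groups did not overlap at 180 days and overlapped at 90 days, with differences of 0.31 (SE 0.12, adjusted p = 0.353) at 180 days, -0.27 (SE 0.12, adjusted p = 0.383) at 90 days and 0.58 (SE 0.17, adjusted p = 0.210) in the interaction. Col5a2 also did not overlap at 180 days, at 21.3, 26.3 and 20.4 units in 180-day LY ovaries, against 18.0, 17.2 and 19.3 units in 180-day black ovaries, and its log2 differences were 0.31 (adjusted p = 0.399) at 180 days and -0.19 (adjusted p = 0.586) at 90 days. With the probes used, all 3 type V chains had higher estimates in LY ovaries at 180 days and lower ones at 90 days. A second probe of Col5a1 lacked this pattern, with differences of 0.07 (adjusted p = 0.855) at 180 days, 0.09 (adjusted p = 0.798) at 90 days and -0.02 (adjusted p = 0.979) in the interaction. Over all 41 chains, 15 had that pattern, against a background of 27.8% of probes. With 1 probe a gene, 9660 of 16323 genes had higher estimates at 180 days and 9097 lower ones at 90 days. Over probes these counts were 17541 and 15956 of 31359. Genes thus leaned further in these directions than probes, and their share with both signs was not counted.

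Type I collagen, the most abundant collagen of most connective tissue, did not share that sign pattern. Col1a1 was 5.30, 7.72 and 8.28 units in 180-day LY ovaries, against 6.39, 4.57 and 6.27 units in 180-day black ovaries, with overlap, and its difference was 0.30 (SE 0.28, adjusted p = 0.726). Its partner chain Col1a2 was 24.4, 25.2 and 25.2 units in 180-day LY ovaries, against 27.7, 27.2 and 28.0 units in 180-day black ovaries. Here the LY arrays were all below the black arrays, by a difference of -0.15 (SE 0.10, adjusted p = 0.597). At 90 days both chains overlapped between genotypes, with differences of 0.23 (adjusted p = 0.779) for Col1a1 and -0.06 (adjusted p = 0.841) for Col1a2. Among the other fibrillar chains, Col11a2 lay without overlap above black at 180 days (0.304, 0.266 and 0.256 units in LY ovaries, against 0.215, 0.220 and 0.212 units in black ovaries), close to the limit of sensitivity, with a difference of 0.35 (adjusted p = 0.529). Col11a1, of the type XI fibrils that are best known from cartilage, had differences of -0.02 at 180 days and 0.19 at 90 days. Col2a1, Col24a1 and Col27a1 had log2 differences of -0.02, -0.18 and -0.26 at 180 days, and their groups overlapped. At 90 days Col2a1, the chain of the main cartilage fibril, was 0.715, 0.826 and 0.776 units in 90-day LY ovaries, against 0.648, 0.700 and 0.668 units in 90-day black ovaries, without overlap, a difference of 0.20 (SE 0.11, adjusted p = 0.483).

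Of the 6 type IV chains, Col4a1 and Col4a2 make up the common network of basement membranes. Col4a2 was 11.4, 13.0 and 14.6 units in 180-day LY ovaries, against 11.0, 8.18 and 10.4 units in 180-day black ovaries. At 90 days it was 9.51, 10.9 and 10.9 units in 90-day LY ovaries, against 11.5, 14.5 and 15.4 units in 90-day black ovaries. The LY arrays lay above black at 180 days and below black at 90 days, without overlap at either age, by 0.41 (SE 0.15, unadjusted p = 0.0203, adjusted p = 0.324) at 180 days and -0.40 (SE 0.15, unadjusted p = 0.0227, adjusted p = 0.294) at 90 days. The interaction was 0.81 (SE 0.21, adjusted p = 0.171), and over both ages the difference was 0.00 (adjusted p = 0.990). Col4a1 was 21.4, 26.6 and 26.0 units in 180-day LY ovaries, against 20.1, 20.1 and 25.0 units in 180-day black ovaries. At 90 days it was 18.5, 20.4 and 19.9 units in 90-day LY ovaries, against 21.0, 20.6 and 28.3 units in 90-day black ovaries. Its groups overlapped at 180 days and not at 90 days, with differences of 0.18 (SE 0.15, adjusted p = 0.656), -0.24 (SE 0.15, adjusted p = 0.522) and, in the interaction, 0.42 (SE 0.21, adjusted p = 0.450).

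Col4a1 and Col4a2 lie head to head and are read in opposite directions from a common stretch, which their windows show. The windows are at chr8:11312777-11313076 on the reverse strand for Col4a1 and chr8:11312555-11312854 on the forward strand for Col4a2 (GRCm38.p6, RefSeq), each 5′ to 3′ along its own gene, and the capitals mark the 78 bases that both hold, as reverse complements of each other.
Col4a1: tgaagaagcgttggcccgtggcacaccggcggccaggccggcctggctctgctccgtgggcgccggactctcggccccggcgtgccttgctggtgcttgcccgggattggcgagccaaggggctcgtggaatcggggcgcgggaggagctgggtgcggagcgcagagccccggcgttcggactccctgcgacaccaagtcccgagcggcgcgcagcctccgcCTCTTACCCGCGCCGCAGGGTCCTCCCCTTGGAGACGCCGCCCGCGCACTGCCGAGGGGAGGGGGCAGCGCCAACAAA
Col4a2: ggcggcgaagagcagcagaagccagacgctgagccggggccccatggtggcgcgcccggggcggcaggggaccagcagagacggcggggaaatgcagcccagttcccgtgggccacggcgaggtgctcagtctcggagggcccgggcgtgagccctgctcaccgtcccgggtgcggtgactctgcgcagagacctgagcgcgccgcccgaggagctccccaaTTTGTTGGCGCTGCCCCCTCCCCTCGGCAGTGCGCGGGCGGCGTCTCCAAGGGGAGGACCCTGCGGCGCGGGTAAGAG
Both windows held the CCAAT box and the GC box on either strand, and neither held the TATA box. Over the 6 arrays of 90 days the log2 levels of Col4a1 and Col4a2 correlated at Pearson r = 0.80 (exact permutation p = 0.00972, adjusted p = 0.111 over 16 relations of 8 neighbouring pairs at 2 ages) and Spearman rho = 0.94 (exact permutation p = 0.0167, adjusted p = 0.267). Without the 2 arrays farthest from the Col4a1 median r was 0.36, over a narrower range of levels. Both chains were lower in LY ovaries at 90 days without overlap, and the permutations exchanged arrays of both genotypes. The relation therefore cannot be told apart from the genotype difference, and 3 arrays a genotype were too few to give it within LY or black ovaries. At 180 days r was 0.71 (exact permutation p = 0.129, adjusted p = 0.295) and rho 0.66 (exact permutation p = 0.175, adjusted p = 0.467), with r = 0.76 without the 2 farthest arrays. None of the 16 relations passed after adjustment.

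The other type IV chains form the networks of more specialised basement membranes, such as those of the kidney and the eye. Col4a3 was 0.493, 0.479 and 0.441 units in 180-day LY ovaries, against 0.416, 0.457 and 0.564 units in 180-day black ovaries, with a difference of -0.01 (adjusted p = 0.976). Col4a4 was 5.20, 6.19 and 5.69 units in 180-day LY ovaries, against 5.02, 5.82 and 6.47 units in 180-day black ovaries, with a difference of -0.02 (adjusted p = 0.977). Col4a5, on the X chromosome, was 0.732, 0.870 and 0.681 units in 180-day LY ovaries, against 0.939, 0.765 and 0.866 units in 180-day black ovaries, and at 90 days it was 1.21, 1.33 and 1.21 units in 90-day LY ovaries, against 1.28, 1.51 and 1.55 units in 90-day black ovaries. Its groups overlapped at each age, and its difference over both ages was -0.19 (SE 0.09, unadjusted p = 0.0493, adjusted p = 0.383). Its neighbour Col4a6 was 1.82, 2.45 and 1.94 units in 180-day LY ovaries, against 2.32, 1.78 and 3.06 units in 180-day black ovaries, with differences of -0.18 (adjusted p = 0.754) at 180 days and -0.19 (adjusted p = 0.719) at 90 days. At 90 days the 4 chains Col4a3 to Col4a6 had differences of 0.19, 0.05, -0.21 and -0.19, all with overlapping groups.

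Type VI collagen had a chain above and a chain below black without overlap at 180 days. Col6a2, which joins Col6a1 and Col6a3 in the common type VI filament, was 104, 107 and 110.4 units in 180-day LY ovaries, against 92.5, 85.8 and 86.0 units in 180-day black ovaries, a difference of 0.28 (SE 0.11, adjusted p = 0.350). At 90 days it was 66.3, 76.6 and 72.8 units in 90-day LY ovaries, against 53.4, 70.7 and 63.2 units in 90-day black ovaries, and over both ages the difference was 0.24 (SE 0.08, unadjusted p = 0.00885, adjusted p = 0.232). Col6a4 was 10.7, 12.1 and 9.37 units in 180-day LY ovaries, against 14.2, 13.6 and 15.2 units in 180-day black ovaries. The LY arrays were all below the black arrays, by -0.43 (SE 0.11, unadjusted p = 0.00247, adjusted p = 0.189). At 90 days Col6a4 was 10.0, 12.1 and 11.2 units in 90-day LY ovaries, against 12.2, 12.02 and 11.8 units in 90-day black ovaries, and over both ages its difference was -0.27 (adjusted p = 0.196). A second probe of Col6a4 gave -0.02 (adjusted p = 0.965) at 180 days and 0.11 (adjusted p = 0.603) over both ages, and with the mean of both probes the differences were -0.22 (adjusted p = 0.399) and -0.08 (adjusted p = 0.651). Col6a1 was 24.1, 25.7 and 29.3 units in 180-day LY ovaries, against 26.8, 25.1 and 25.3 units in 180-day black ovaries, and its 95% interval of the log2 difference, -0.21 to 0.26, covered 0. Col6a3, the largest chain of the filament, had differences of 0.03 (adjusted p = 0.964) at 180 days and 0.07 (adjusted p = 0.900) at 90 days, and Col6a5 and Col6a6 had -0.30 and 0.03 at 180 days.

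Among the FACITs, Col19a1 stood above black at both ages. It was 0.823, 0.978 and 0.886 units in 180-day LY ovaries, against 0.688, 0.776 and 0.707 units in 180-day black ovaries. At 90 days it was 0.628, 0.679 and 0.620 units in 90-day LY ovaries, against 0.481, 0.466 and 0.594 units in 90-day black ovaries. The groups did not overlap at either age, and the log2 difference was 0.31 (SE 0.11, adjusted p = 0.323) at 180 days, 0.33 (SE 0.11, adjusted p = 0.251) at 90 days and 0.32 (SE 0.08, unadjusted p = 0.00219, adjusted p = 0.155) over both. Col22a1, known from tissue junctions such as those of muscle and tendon, was 3.48, 3.63 and 3.81 units in 90-day LY ovaries, against 3.00, 3.28 and 3.11 units in 90-day black ovaries. It did not overlap at 90 days and did at 180 days, with differences of 0.22 (adjusted p = 0.282) at 90 days, 0.12 (adjusted p = 0.594) at 180 days and 0.17 (adjusted p = 0.263) over both. Col16a1 was 0.621, 0.614 and 0.694 units in 90-day LY ovaries, against 0.591, 0.422 and 0.534 units in 90-day black ovaries, higher in all LY arrays by 0.33 (SE 0.13, adjusted p = 0.331). At 180 days it was 2.44, 2.19 and 1.94 units in 180-day LY ovaries, against 2.65, 2.31 and 2.40 units in 180-day black ovaries. With the probes used, Col16a1 was the only chain with a negative interaction at an unadjusted p under 0.05, at -0.50 (SE 0.19, unadjusted p = 0.0251, adjusted p = 0.326). A second probe of Col9a1, under 0.2 units on 4 arrays, had an interaction of -0.61 (SE 0.22, unadjusted p = 0.0199, adjusted p = 0.300). Col14a1 had differences of 0.41 (adjusted p = 0.595) at 180 days and -0.40 (adjusted p = 0.574) at 90 days, with wide spread and overlap at each.

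Both multiplexins were lower on every LY array than on every black array at 90 days. Col15a1 was 0.956, 0.835 and 1.06 units in 90-day LY ovaries, against 1.28, 1.30 and 1.18 units in 90-day black ovaries, a difference of -0.40 (SE 0.11, unadjusted p = 0.00303, adjusted p = 0.160). Col18a1, whose end fragment is endostatin, was 2.96, 3.61 and 4.01 units in 90-day LY ovaries, against 4.16, 5.04 and 5.35 units in 90-day black ovaries, a difference of -0.46 (SE 0.13, unadjusted p = 0.00552, adjusted p = 0.195). At 180 days their groups overlapped. Col15a1 was then 0.951, 0.957 and 1.07 units in 180-day LY ovaries, against 0.845, 0.904 and 0.959 units in 180-day black ovaries, a difference of 0.14 (adjusted p = 0.646), and Col18a1 was 7.75, 7.44 and 8.11 units in 180-day LY ovaries, against 6.79, 6.74 and 7.89 units in 180-day black ovaries, a difference of 0.12 (adjusted p = 0.756). The interactions were 0.54 (SE 0.15, adjusted p = 0.190) for Col15a1 and 0.59 (SE 0.19, adjusted p = 0.239) for Col18a1. The 7 surface epithelium markers measured of 8 also separated the 90-day genotypes, summing to 18.7 to 20.6 units in LY ovaries and 23.9 to 34.1 units in black ovaries, as did the 2 luteal markers measured of 4 (5.63 to 7.70 units in LY ovaries and 12.6 to 18.2 units in black ovaries) and the 4 oviduct markers (3.47 to 3.68 units in LY ovaries and 4.61 to 7.23 units in black ovaries). The part of these markers in the 90-day collagen differences was not tested.

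**Figure D2:**
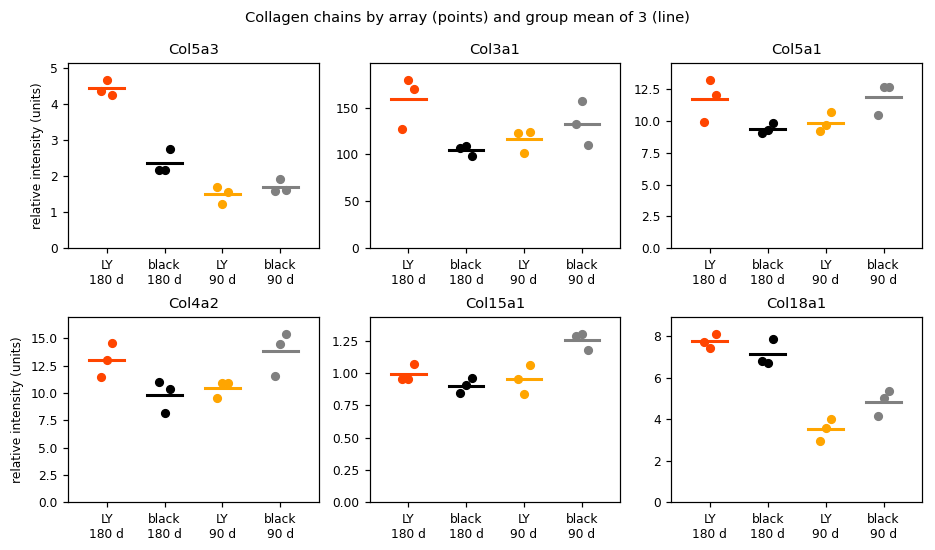
Relative intensity (array median = 1) of 6 collagen chains with a positive interaction at an unadjusted p under 0.05, by array (points) and group mean (line, n = 3). Col5a2 (0.50) and Col16a1 (-0.50, the only negative chain with the probes used) also had an unadjusted interaction p under 0.05 and are not shown. Col5a3 is high in all 3 of the 180-day LY ovaries, and Col4a2 is above black at 180 days and below black at 90 days.

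Counted over all chains, 8 lay without overlap above black at 180 days (background 14.2% of probes) and 2 below (8.32%). At 90 days 4 lay above (6.81%) and 4 below (9.43%). The median log2 difference of the 41 chains was 0.03 at 180 days, against 0.04 over all genes tested, and -0.08 at 90 days, against -0.03 over all genes. By class, the 11 fibrillar chains had a median of 0.30 at 180 days and -0.06 at 90 days, the 6 type IV chains -0.01 and -0.20, the 6 type VI chains 0.03 and 0.05 and the 7 FACITs 0.08 and -0.03. Of the fibrillar chains, 6 had higher and 5 lower estimates in LY ovaries at 180 days, and 3 higher and 8 lower at 90 days. Their 180-day median was the value of Col1a1 (adjusted p = 0.726 in limma), whose groups overlapped. The transmembrane chains Col13a1, Col17a1, Col23a1 and Col25a1, the network-forming chains Col8a1, Col8a2 and Col10a1, and Col7a1 and Col26a1 overlapped between genotypes at both ages. With 3 mice a group, the 95% interval of the difference lay within 1.9-fold in either direction for 36 chains at 180 days, 39 at 90 days, 30 in the interaction and 40 over both ages. At 180 days the intervals of Col3a1, Col5a3, Col6a5, Col8a1 and Col14a1 reached past 1.9-fold, so for these the data allow a difference of that size.

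**Figure D3:**
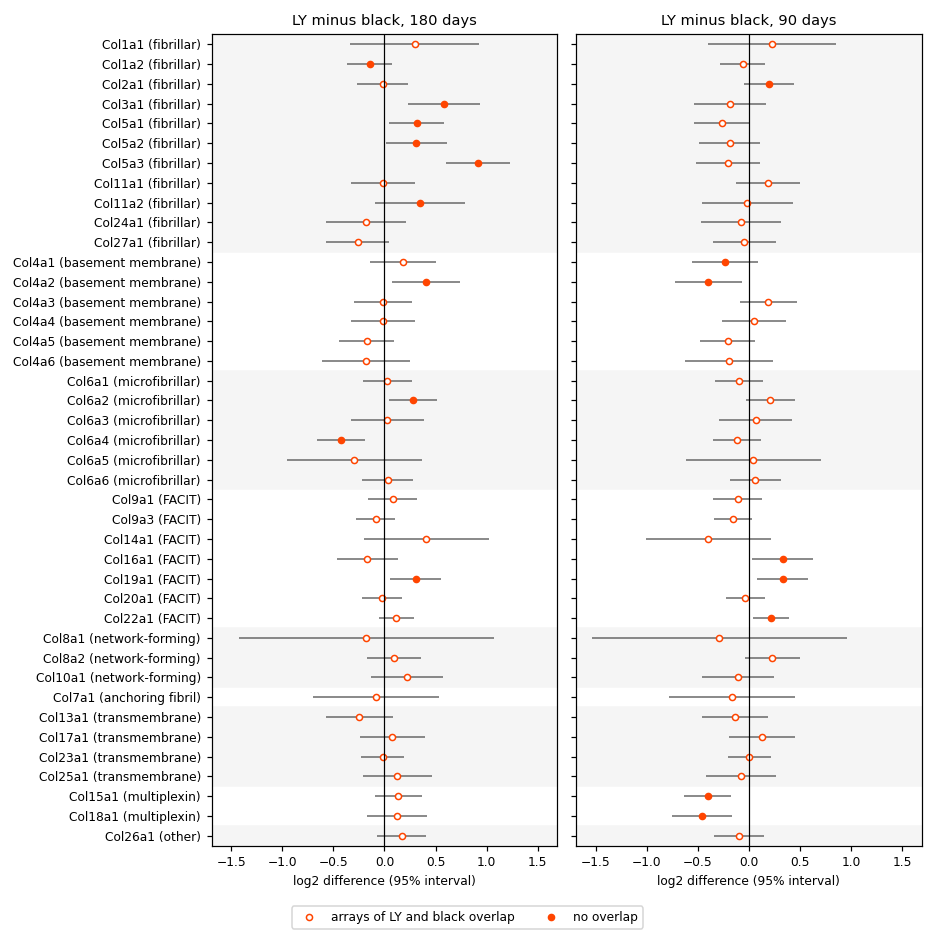
Log2 difference of each collagen chain, LY minus black, at 180 days (left) and 90 days (right), with 95% intervals from the limma fit (n = 3 mice a group) and filled points where the arrays of both genotypes do not overlap. Col5a3 lies farthest from 0 at 180 days, and Col18a1, Col15a1 and Col4a2 are the lowest chains without overlap at 90 days.

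Between the 180-day and the 90-day array sets, 23 of the 41 chains passed an adjusted p of 0.05. Of these, 15 were higher (background 33.8% of probes) and 8 lower at 180 days (background 25.4%), so that the share of chains was near that of all probes. The median over the chains was 0.11, against 0.01 over all genes tested. Both network-forming chains of type VIII, a collagen of vessel walls and of the membrane under the corneal endothelium, were among the higher ones. Col8a2 had a lowest, median and highest value of 1.08, 1.23 and 1.30 units at 180 days, against 0.263, 0.350 and 0.372 units at 90 days, a difference of 1.87 (SE 0.09, adjusted p = 5.43e-08). Col8a1 had a lowest, median and highest value of 0.221, 0.454 and 0.604 units at 180 days, against 0.0281, 0.0948 and 0.161 units at 90 days. All 6 of its 90-day arrays lay under the limit of sensitivity, so that its level at 180 days was at least 2.10-fold higher, with an adjusted p of 0.000491 in the fit.

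The FACITs split by age. Col16a1 had a lowest, median and highest value of 1.94, 2.36 and 2.65 units at 180 days, against 0.422, 0.603 and 0.694 units at 90 days, and Col9a1 had a lowest, median and highest value of 1.14, 1.24 and 1.34 units at 180 days, against 0.421, 0.480 and 0.560 units at 90 days. The ages did not overlap for either chain, with differences of 2.01 (SE 0.10, adjusted p = 6.15e-08) for Col16a1 and 1.35 (SE 0.08, adjusted p = 1.58e-07) for Col9a1. Col19a1 was higher at 180 days by 0.49 (adjusted p = 0.000323), a call that ended with the mean of both its probes (0.23, adjusted p = 0.177). Col22a1 was lower, with a lowest, median and highest value of 2.19, 2.25 and 2.51 units at 180 days, against 3.00, 3.38 and 3.81 units at 90 days and a difference of -0.55 (SE 0.06, adjusted p = 1.12e-05). Col20a1 was lower, at -0.17 (adjusted p = 0.0401) with overlap of the ages, and it lost this call in 10 of the 12 fits that each left out 1 array. Col9a3 differed by 0.11 (adjusted p = 0.125) and Col14a1 by -0.47 (adjusted p = 0.0614), and neither passed.

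Of the 11 fibrillar chains, 4 were higher (background 33.8% of probes) and 1 was lower at 180 days (background 25.4%). Col5a3 had a lowest, median and highest value of 2.17, 3.50 and 4.67 units at 180 days, against 1.23, 1.60 and 1.93 units at 90 days, a difference of 1.02 (SE 0.10, adjusted p = 8.68e-06). As a mean over genotypes this includes the 180-day LY arrays, and the black arrays of the 2 ages, at 2.17, 2.17 and 2.75 units at 180 days and 1.60, 1.93 and 1.61 units at 90 days, did not overlap either. Col1a2 had a lowest, median and highest value of 24.4, 26.2 and 28.0 units at 180 days, against 15.9, 18.3 and 20.3 units at 90 days, a difference of 0.54 (SE 0.07, adjusted p = 6.52e-05), while Col1a1, which pairs with it in type I collagen, differed by -0.40 (SE 0.20, adjusted p = 0.107) and did not pass. Col5a2 was higher by 0.31 (adjusted p = 0.0163) and Col2a1 by 0.21 (adjusted p = 0.0370), a call that Col2a1 lost in 8 of the 12 fits without 1 array. Col24a1 was lower, at -0.46 (adjusted p = 0.00941). Col3a1, Col5a1, Col11a1, Col11a2 and Col27a1 did not pass, with differences of 0.05, -0.05, -0.06, 0.26 and 0.03.

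In type VI collagen, 3 of 6 chains were higher at 180 days (background 33.8% of probes). Col6a3 had a lowest, median and highest value of 14.6, 18.2 and 21.2 units at 180 days, against 7.33, 8.80 and 10.8 units at 90 days, a difference of 1.02 (SE 0.11, adjusted p = 2.40e-05). Col6a2 had a lowest, median and highest value of 85.8, 98.1 and 110.4 units at 180 days, against 53.4, 68.5 and 76.6 units at 90 days, a difference of 0.54 (SE 0.08, adjusted p = 0.000129), which turned to -0.21 with quantile normalization between arrays. Col6a5 was higher by 0.80 (adjusted p = 0.00756) with overlap, while its second probe gave 0.01 (adjusted p = 0.965). Col6a1 differed by 0.01 (adjusted p = 0.896), Col6a4 by 0.10 (adjusted p = 0.282) and Col6a6 by 0.12 (adjusted p = 0.230). Among type IV chains Col4a5 alone passed, lower with a lowest, median and highest value of 0.681, 0.816 and 0.939 units at 180 days, against 1.21, 1.30 and 1.55 units at 90 days, a difference of -0.74 (SE 0.09, adjusted p = 3.06e-05). The common chains Col4a1 and Col4a2 differed by 0.12 (adjusted p = 0.346) and -0.09 (adjusted p = 0.494).

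Both multiplexins, all 4 transmembrane chains and Col26a1 passed by age, in both directions (background 33.8% of probes higher and 25.4% lower). Col18a1 had a lowest, median and highest value of 6.74, 7.60 and 8.11 units at 180 days, against 2.96, 4.08 and 5.35 units at 90 days, a difference of 0.86 (SE 0.09, adjusted p = 1.97e-05), while the other multiplexin Col15a1 was lower, at -0.20 (adjusted p = 0.0351), with overlap, and lost this call in 8 of the 12 fits without 1 array. Of the transmembrane chains, Col13a1 was higher by 0.60 (adjusted p = 0.000548) and Col25a1 by 0.35 (adjusted p = 0.0164). Col17a1, part of the attachment of epithelia to their basement membrane, was lower, at -0.53 (adjusted p = 0.00112) and Col23a1 at -0.29 (adjusted p = 0.00361). With the mean of both probes of each gene, the calls of Col23a1 (-0.09, adjusted p = 0.254) and Col25a1 (-0.37, adjusted p = 0.124) ended, and Col25a1 turned direction. Col26a1 was lower, at -0.45 (adjusted p = 0.000503).

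**Figure D4:**
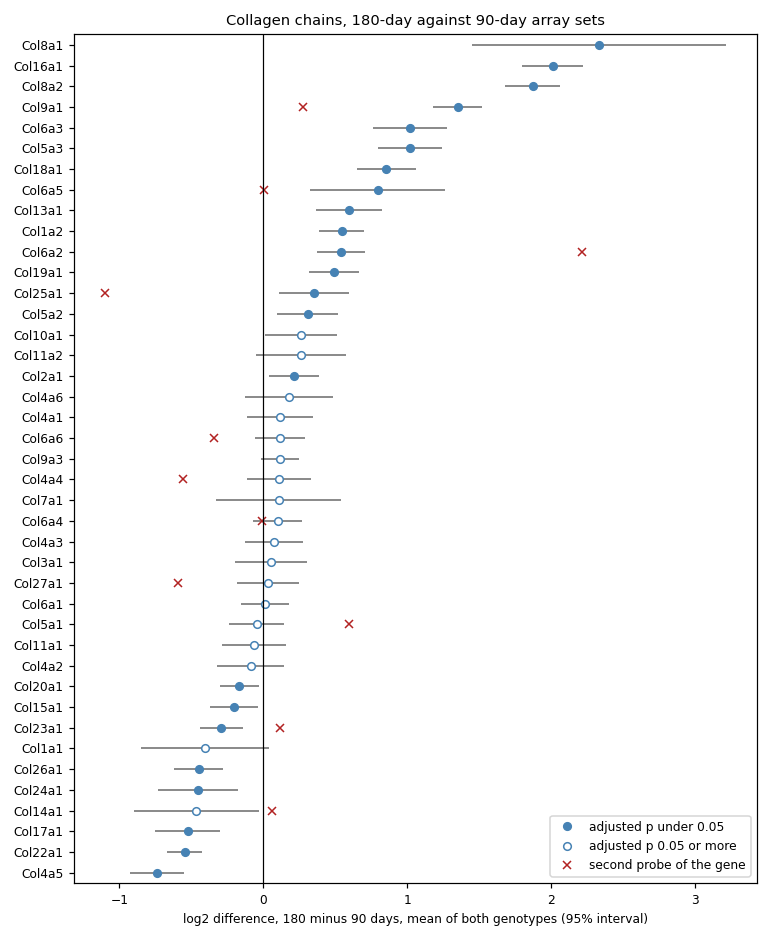
Log2 difference of each collagen chain between the 180-day and 90-day array sets (180 minus 90 days, mean of both genotypes, 95% intervals, n = 6 arrays an age), filled where the adjusted p is under 0.05. Crosses give the second probe of 11 chains, of which 8 have the opposite sign.

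For 12 chains a further probe carried the same gene name, and 11 of these passed the filter. In the age comparison 8 of the 11 had the opposite sign to the probe used, and of the 2 chains called by both probes Col25a1 disagreed in direction, at 0.35 for the probe used and -1.10 for the second, which was under 0.2 units on 6 arrays. Col5a1 (-0.05 and 0.59), Col4a4 (0.11 and -0.56) and Col27a1 (0.03 and -0.59) were called by the second probe only. Col6a2 was the other chain called by both, at 0.54 for the probe used and 2.22 for a second probe under 0.2 units on 8 arrays. Between genotypes, 5 of the 11 second probes had the opposite sign at 180 days, 7 at 90 days, 7 in the interaction and 4 over both ages, and none of either kind passed. The sign patterns across ages described above are therefore those of the probes used, and Col5a3 and Col3a1 had a single probe.

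Other genes of the collagen pathway were described from lists chosen by function, and none of their members passed a genotype comparison or the interaction. Of the 25 measured genes of procollagen processing and crosslinking, 14 had higher estimates in LY ovaries at 180 days and 5 at 90 days, with medians of 0.02 and -0.10. Pcolce, the enhancer of the enzyme that trims the procollagen end, was 106, 115 and 126 units in 180-day LY ovaries, against 81.4, 98.5 and 85.8 units in 180-day black ovaries, and 59.8, 52.1 and 66.9 units in 90-day LY ovaries, against 84.2, 71.5 and 85.8 units in 90-day black ovaries. The groups did not overlap at either age, and the log2 difference was 0.39 (adjusted p = 0.274) at 180 days, -0.44 (adjusted p = 0.193) at 90 days and 0.82 (adjusted p = 0.114) in the interaction. Sparc, a glycoprotein that binds fibrillar collagen and assists its secretion, was 182, 199 and 199.8 units in 180-day LY ovaries, against 176, 152 and 149 units in 180-day black ovaries. Its difference was 0.29 (adjusted p = 0.288) at 180 days, -0.39 (adjusted p = 0.137) at 90 days and 0.68 (adjusted p = 0.107) in the interaction. Pcolce and Sparc thus had the sign pattern of Col5a3, Col3a1 and Col4a2. Colgalt2, also a procollagen processing gene, had the opposite pattern. Its difference was -0.33 (adjusted p = 0.469) at 180 days, 0.42 (adjusted p = 0.322) at 90 days and -0.74 (adjusted p = 0.234) in the interaction. At an unadjusted interaction p under 0.05, 4 of the 25 processing genes were positive and 1 negative, against 1815 and 537 of all 16323 genes.

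Enzymes that cut collagen and their inhibitors gave 18 measured genes, with medians of -0.02 at 180 days and -0.12 at 90 days. Mmp14, a membrane-bound collagenase, had a difference of -0.47 (adjusted p = 0.116) at 90 days, and Timp3, an inhibitor of such enzymes bound to the matrix, -0.34 (adjusted p = 0.269) at 180 days. Of 8 collagen receptors the one with the smallest p at 180 days was Ddr2, a receptor tyrosine kinase for fibrillar collagen, at -0.42 (adjusted p = 0.324). Of 8 small leucine-rich proteoglycans, which coat fibrils, it was Fmod at 0.57 (adjusted p = 0.225), and of 12 laminins and other basement membrane proteins Lama2 at -0.25 (adjusted p = 0.514). Of 16 interstitial glycoproteins Fbn2, a fibrillin, had -0.68 (adjusted p = 0.274).

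Between ages, the same lists held calls in both directions, as did all probes (33.8% called higher and 25.4% called lower). With 1 probe a gene, 4984 of 16323 genes were called higher and 4644 lower. Whether any list differed from these shares was not tested. In procollagen processing 9 were higher and 7 lower at 180 days, and the crosslinking enzymes Loxl2 and Lox moved oppositely, by 1.05 (adjusted p = 3.86e-06) and -0.98 (adjusted p = 4.08e-05). In collagen breakdown 8 were higher and 3 lower, with Timp2 at 1.79 (adjusted p = 6.61e-08) and the gelatinase Mmp2 at -0.59 (adjusted p = 3.70e-05). Of the receptors 2 were higher and 1 lower, Ddr2 by 1.29 (adjusted p = 2.62e-06), Itga1 by 0.86 (adjusted p = 0.000672) and Itgb1, the beta chain shared by the collagen-binding integrins, by -1.21 (adjusted p = 1.08e-06). Of the proteoglycans 3 were higher and 3 lower, among them Dcn (0.42, adjusted p = 0.00151), Lum (-0.51, adjusted p = 6.26e-05) and Bgn (-0.60, adjusted p = 0.00126). Of the basement membrane proteins 7 were higher and 2 lower, with Lamb2 at 1.81 (adjusted p = 1.30e-07) and Nid1 at 0.89 (adjusted p = 1.30e-05), and of the interstitial glycoproteins 4 were higher and 3 lower, with Sparc at 0.76 (adjusted p = 4.10e-06) and Vcan at -0.61 (adjusted p = 0.000826).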

How the data were processed

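Whole-ovary RNA of 12 mice was measured on single-channel CodeLink whole-genome arrays, 1 array a mouse and 3 mice a group. Scanning (GenePix), background correction (CodeLink software) and normalization (GeneSpring) were the authors' work, and they deposited 1 relative intensity for each probe and array. The genome build behind the array's probes is not given in the sources used here. Probes were named through GEO's platform table (21615 probes with 1 gene name, 681 with several, 13931 with none). Here values were scaled to a median of 1 on each array, floored at 0.01 units and put on the log2 scale. The probes that reached a group mean of 0.2 units in any of the 4 groups were fitted with limma 3.58.1 (R 4.3.3, lmFit with 4 group means, then eBayes; 8 residual and 2.46 prior degrees of freedom), with Benjamini-Hochberg adjustment over all 31359 probes and a threshold of 0.05. The fit was tested on simulated data before use. Contrasts were LY against black at 180 days, at 90 days and over both ages, their interaction, and 180 against 90 days.

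The collagen chains and the other gene lists were chosen with earlier results of these data known. Every collagen gene may be named. Values on each array are given for those with the smallest p in each comparison (up to 5, or 12 in each direction by age) and for types I, III and IV. From other lists, up to 4 genes with the smallest p in a comparison are named. Promoter windows (250 bases before to 50 after the start, GRCm38.p6) are from RefSeq. Arrays have no count depth, so precision depends on how many there are and on the level and spread of each probe. Mice with the same replicate number did not deviate together, so the numbers were not used to pair them.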

Additional observations from a re-analysis of the deposited data

How the results depend on the processing

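Over 40 differences of named chains, 33 kept their direction and their side of the threshold in every fit other than those that left out an array. The adjusted p of Col5a3 at 180 days ranged over 0.0132 to 0.227, and the count of collagen chains called between LY and black ovaries at 180 days was 1 (Col5a3) in place of 0 when an intensity trend was given to eBayes, arrays were weighted by quality, the floor was 0.2 units, the filter held in all 4 groups, or 0.1 units were added as a pseudocount. The interaction count was 1 (Col5a3) in place of 0 with the filter in all 4 groups and with the intensity trend, and its adjusted p ranged over 0.0240 to 0.177. Over all probes, the calls at 180 days ranged from 0 by the methods' t-test to 157 with array weights, and at 90 days they reached 200 with the intensity trend, against 14 in each. The methods' t-test passed 7 chains at 180 days and 5 at 90 days without adjustment, and 0 at each after Benjamini-Hochberg. Without adjustment the same t-test passed 4202 of the 31359 probes at 180 days and 2799 at 90 days. Quantile normalization turned the age difference of Col6a2 to -0.21 (adjusted p = 0.0116 in limma) and ended the age calls of Col2a1, Col20a1 and Col25a1. Array weights ended those of Col2a1 and Col15a1, values as deposited that of Col2a1, and the mean of all probes of a gene those of Col19a1, Col23a1 and Col25a1 (-0.37, turned), while it put Col6a4 at -0.22 at 180 days and the Col5a1 interaction at 0.28 (limma adjusted p = 0.399 and 0.406). The mean of all probes also moved, without ending a call, the age differences of Col9a1 to 0.81, Col6a2 to 1.38 and Col6a5 to 0.40 and the uncalled genotype difference of Col19a1 over both ages to 0.56. Age calls were also gained. Quantile normalization newly called Col3a1, and the mean of all probes newly called Col27a1, Col4a4 and Col5a1. Col14a1 was newly called with values as deposited, the filter in all 4 groups and the intensity trend, and Col10a1 and Col14a1 with the floor of 0.2 units. With the filter in all 4 groups Col8a1 was not tested. The causes were not tested.

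With the replicate number as a replicate block, 0 chains were called in each genotype comparison and the interaction, and 15 higher and 8 lower by age, and the 23 chains called by age were the same genes with the same direction, so the block changed no call on the chains. The deviations of mice with the same number correlated at -0.07 to -0.00 at 180 days and 0.05 to 0.15 at 90 days. Leaving out each array in turn gave 0 to 0 chains in the 4 genotype tests, 14 to 15 higher and 6 to 8 lower by age. Age calls of Col15a1, Col2a1 and Col20a1 were lost in 8, 8 and 10 of these 12 fits. In some of these fits Col1a1, Col10a1, Col11a2 or Col14a1 was newly called by age. In the other settings the age counts were 12 to 16 higher and 7 to 9 lower. Levels near 0.2 units (Col8a1, Col11a2, Col10a1, Col7a1) limit what could be seen of those chains.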
